A study of Mus musculus with 8 samples.

Results

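Secretoglobins are small secreted proteins, and 4 members of the family carried a symbol in the annotated matrix of this series, namely Scgb3a2, Scgb3a1, Scgb1a1 and Scgb1c1. They were taken by gene symbol, of 21230 genes named on the array, and each was represented by 1 probe and 1 spot. Their transcripts were measured on 8 two-color Agilent arrays, 1 per mouse, for 4 wild-type mice and 4 mice carrying an Scgb3a2 transgene. The lung RNA was labeled with Cy5 and set against 1 common reference pool in Cy3. All mice were untreated males on the C57BL/6 background, given as 8 to 10 weeks old by the sample labels, and whole lung was extracted. The transgene carries the mouse Scgb3a2 coding sequence behind the human surfactant protein C promoter, which is active in alveolar type II cells, and the mice descend from a single founder line. The methods describe the pool as an equal mixture of the sample RNAs, and the dyes were not swapped on any array. A slide held 1 array of each genotype, so there were 4 slides, which were read on 2 scan days.

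Scgb1a1, also called uteroglobin or club cell secretory protein, is the classical product of the club cells that line the small airways. Scgb3a2, or UGRP1, is also made by airway club cells, and Scgb3a1, or HIN-1, is made mainly by secretory cells of the larger airways. Scgb1c1 is best known from the nasal mucosa. Transcription of the lung secretoglobin genes is known to depend on the homeodomain factor NKX2-1 and on forkhead and C/EBP factors. Secreted secretoglobins are found in airway fluid and have been linked to phospholipase inhibition and to dampening of inflammation.

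The sequence upstream of the start is shown as a description for Scgb3a1 and Scgb1c1. Both are the 250 bases before the annotated start in the RefSeq promoter table of build GRCm38.p6, at chr11:49663345-49663594 on the plus strand for Scgb3a1 and at chr7:140845315-140845564 on the plus strand for Scgb1c1. Capitals mark matches, on either strand, to the NKX2-1 core CTCAAG or to the forkhead forms TGTTTAC and TGTTTGC.
Scgb3a1: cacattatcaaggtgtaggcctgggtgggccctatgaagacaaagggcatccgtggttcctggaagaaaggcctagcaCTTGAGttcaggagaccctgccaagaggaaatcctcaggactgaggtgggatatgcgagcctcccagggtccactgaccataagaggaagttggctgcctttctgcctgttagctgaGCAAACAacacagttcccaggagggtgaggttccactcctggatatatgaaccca
Scgb1c1: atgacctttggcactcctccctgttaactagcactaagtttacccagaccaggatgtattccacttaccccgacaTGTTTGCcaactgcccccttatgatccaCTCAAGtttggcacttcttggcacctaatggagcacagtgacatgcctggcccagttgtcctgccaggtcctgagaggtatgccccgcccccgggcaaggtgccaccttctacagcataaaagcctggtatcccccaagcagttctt
Each window held 1 match to CTCAAG, which 13.3% of 32851 promoter windows of this length also held. Each also held 1 match to TGTTTGC, found in 4.3% of the windows, and no match to TGTTTAC, found in 3.17%. No motif overlapped another. In Scgb3a1 the matches lie on the minus strand and begin 172 and 55 bases before the start, and in Scgb1c1 they lie on the plus strand and begin 147 and 175 bases before it. A match of letters is a description of the sequence and not evidence of binding.

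All 4 probes were well above background in Cy5 on 8 of 8 arrays and none was saturated. By mean Cy5 signal, Scgb1a1 lay at the 99.98th percentile of 32653 tested probes, Scgb3a1 at the 99.83rd, Scgb3a2 at the 99.64th and Scgb1c1 at the 88.68th, and since probes differ in efficiency this places each probe on the array and does not order the genes. The raw Cy5 signal of the Scgb1a1 spot ran from 160448 to 228867, against 1248 to 2225 for Scgb1c1. Over all arrays the median raw Cy5 signal was 204 to 277.5 and between 32271 and 34720 probes were well above background. The club cell markers Cyp2f2 and Cldn10, the type II marker Sftpc and the ciliated cell marker Foxj1 were also well above background on 8 of 8 arrays.

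Scgb3a2, the gene carried by the transgene, was higher on average in the transgenic lungs. Its log2 ratio of lung to pool was 0.01, -0.39, 0.58 and -0.56 in wild-type replicates 1 to 4 and 1.26, 0.47, 0.70 and 0.74 in transgenic replicates 1 to 4. The groups overlapped, because wild-type replicate 3 lay above transgenic replicate 2. The wild-type mean was -0.09 ± 0.51 (SD, n = 4) and the transgenic mean 0.79 ± 0.33 (SD, n = 4), which is a gap of 0.88 on the log2 scale (SE 0.24, 95% interval 0.36 to 1.41) or 1.84-fold. The unadjusted p from limma was 0.0033, which ranked 14th of 32653 probes, and the adjusted p was 1. An exact two-sided permutation of the genotypes over this single gene gave p = 0.0571, where the smallest value that 4 against 4 allow is 0.0286. The position of the probe on the transcript is not given in the sources used here, so the share of the transgene message that the Scgb3a2 probe detects was not tested. In whole lung, more cells expressing a gene and more RNA per cell cannot be told apart, and this holds for every value below.

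The excess of Scgb3a2 was present on each slide but differed in size. Transgenic minus wild-type was 0.16 on slide 1, 1.26 on slide 2, 0.86 on slide 3 and 1.26 on slide 4. The small value on slide 1 pairs wild-type replicate 3, the wild-type lung with the most Scgb3a2, with transgenic replicate 4. Within the first scan day the difference was 0.71 and within the second 1.06, with 2 mice of each genotype on each day. In limma the unadjusted p was 0.00031 when scan day was blocked and 0.000778 when slide was blocked, and neither passed after adjustment over all probes.

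Scgb3a1 was the most variable of the family between mice. Its log2 ratio was 1.34, 0.85, 1.39 and 0.68 in the wild-type lungs and 1.95, -0.10, 0.64 and -1.07 in the transgenic lungs. Transgenic replicate 1 was thus the highest of all lungs and transgenic replicate 4 the lowest, and they stood 3.02 apart on the log2 scale, or 8.13-fold. Wild-type lungs averaged 1.06 ± 0.35 (SD, n = 4), against 0.36 ± 1.27 (SD, n = 4) for the transgenic ones. The difference was -0.71 (SE 0.49, 95% interval -1.78 to 0.37), with p = 0.175 in limma before and 1 after adjustment, and with an exact permutation p of 0.314. Without transgenic replicate 1 the difference was -1.24 with an unadjusted p of 0.00332 in limma, and without transgenic replicate 4 it was -0.23 with an unadjusted p of 0.56, so the size rests on single mice. By slide it was -2.46, 0.62, -0.95 and -0.05 on slides 1 to 4. The SD within genotype was 0.93, at the 99.75th percentile of all tested probes, whose median was 0.18.

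Scgb1a1 differed little between genotypes. Its log2 ratio was 2.20, 1.43, 2.83 and 1.45 in the wild-type lungs and 1.94, 1.71 and 1.98 in transgenic replicates 2 to 4. Transgenic replicate 1 gave no value, since its spot was flagged as non-uniform in Cy3, and its ratio of processed signals was 2.56 on the log2 scale. All 3 transgenic values lay inside the wild-type range. The means were 1.98 ± 0.67 (SD, n = 4) and 1.88 ± 0.15 (SD, n = 3), and the difference was -0.10 (SE 0.30, 95% interval -0.76 to 0.56). The p was 0.739 in limma before and 1 after adjustment, and 0.857 by exact permutation. The sign of so small a difference turned when the flagged spot was kept, which gave 0.18, and when wild-type replicate 3 was left out, which also gave 0.18.

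Scgb1c1 was measured at 0.19, 0.18, 0.85 and 0.06 in the wild-type and 1.12, 0.59, 0.46 and 0.40 in the transgenic lungs, as log2 ratios. Only wild-type replicate 3, at 0.85, lay inside the transgenic range, and the other wild-type lungs were below every transgenic lung. The means were 0.32 ± 0.36 (SD, n = 4) and 0.64 ± 0.33 (SD, n = 4). Their difference was 0.32 (SE 0.20, 95% interval -0.11 to 0.75), with p = 0.129 in limma before and 1 after adjustment, and with an exact permutation p of 0.257. Without wild-type replicate 3 it was 0.50 with an unadjusted p of 0.013 in limma, and without transgenic replicate 1 it was 0.16 with an unadjusted p of 0.369.

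**Figure D1:**
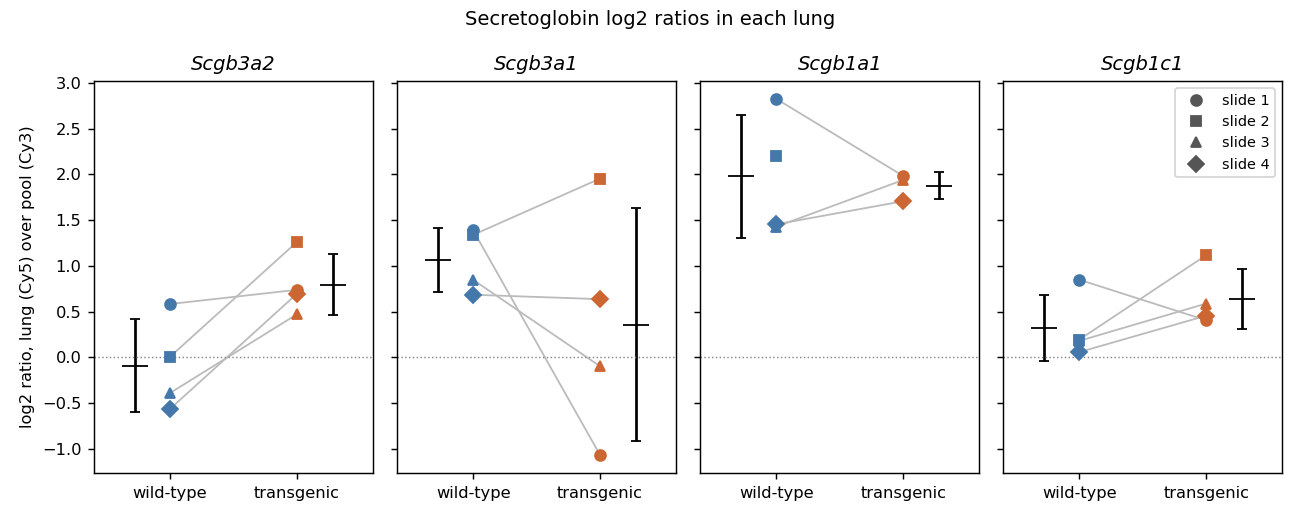
Log2 ratio of lung (Cy5) to the reference pool (Cy3) for the 4 secretoglobins, with 1 point per lung, a symbol per slide, gray lines joining the arrays of a slide, and black bars for the mean ± SD of each genotype (n = 4, or 3 transgenic lungs for Scgb1a1). Scgb3a2 lies higher in the transgenic lung on each slide, and the transgenic values of Scgb3a1 run from -1.07 to 1.95.

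Across the array 0% of 32653 probes had an adjusted p under 0.05 in limma, and none of the 4 secretoglobins did. The methods' t-test also left 0 probes after adjustment. At an unadjusted p under 0.05 limma called 684 probes, or 2.09%, of which 1.12% were higher and 0.974% were lower in the transgenic lungs. Of the 4 secretoglobins 1 was among them, Scgb3a2, the gene of the transgene itself. With a difference over 1.5-fold as well, 75 probes or 0.23% were called, and Scgb3a2 was again the 1 secretoglobin among them. Of probes with 8 values 1.46% did not overlap between genotypes, and none of the 3 secretoglobins with 8 values belonged to them. By absolute difference Scgb3a2 lay at the 99.82nd percentile and Scgb3a1 at the 99.65th, while Scgb1a1 lay at the 61.6th.

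**Figure D2:**
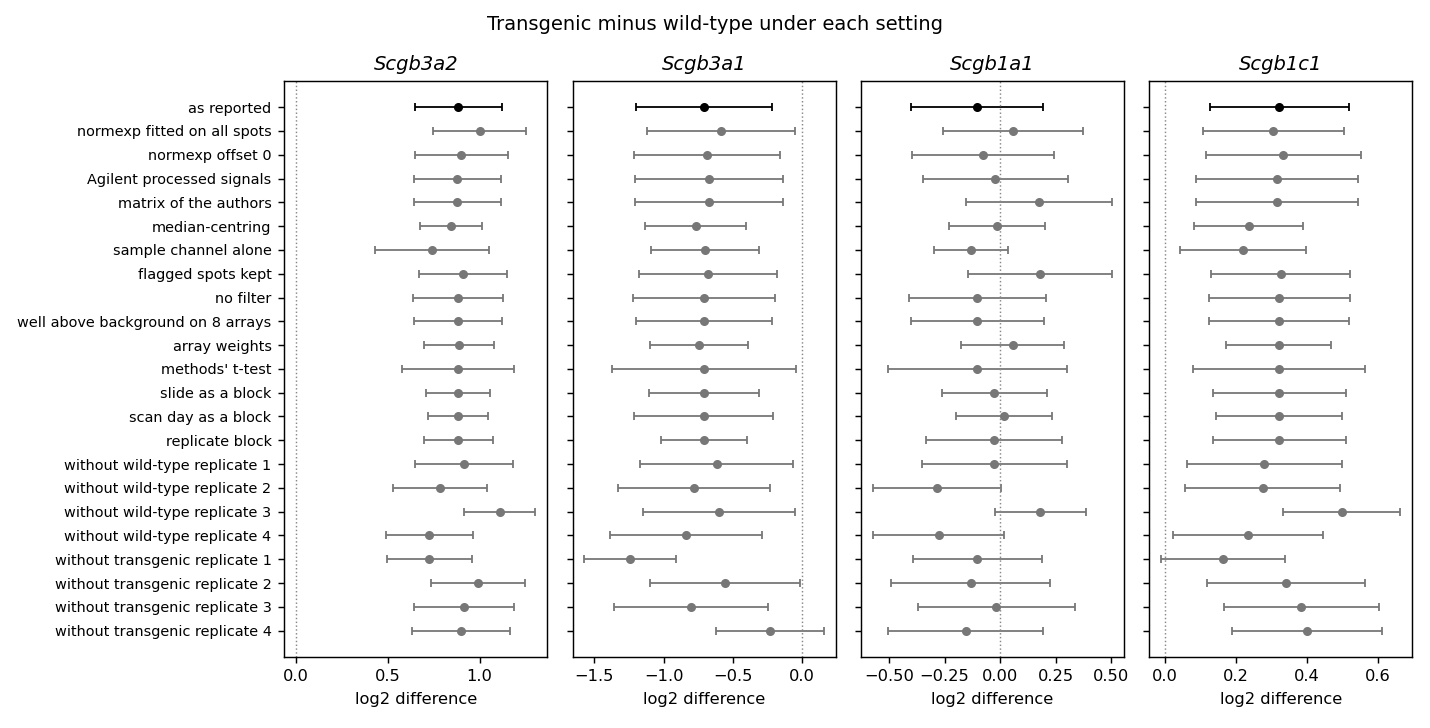
Transgenic minus wild-type difference in log2 ratio (horizontal axis) for each secretoglobin under the reported setting (black) and each alternative (gray), with bars for the standard error. Scgb3a2 stays between 0.726 and 1.11, Scgb3a1 stays below 0, Scgb1c1 stays above 0 and Scgb1a1 lies on both sides of 0.

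Relative to the pool, the mean ratio of each secretoglobin over the lungs stood above 1. The mean linear ratio over the lungs was 4.03 ± 1.52 for Scgb1a1 (SD, n = 7), 1.92 ± 1.07 for Scgb3a1, 1.44 ± 0.38 for Scgb1c1 and 1.38 ± 0.56 for Scgb3a2 (SD, n = 8 each). For a pool that mixes these same RNAs equally the mean would be 1. The mean log2 ratio of Scgb1a1 lay at the 99.85th percentile of all probes, while the median over the 327 brightest probes was 0.12. A dye effect of the probe and the make-up of the pool cannot be told apart, because the dyes were never swapped.

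The same pool RNA lay on every array in Cy3, and both channels were normalized together, so the spread of Cy3 describes the arrays and is not a separate measure of the error in Cy5. On the log2 scale, the normalized Cy3 signal of Scgb1a1 had an SD of 0.30 over the 7 arrays with a value, more than the SD of 0.20 of its Cy5 signal, and its spots carried a background population flag on 7 of 8 arrays. For the other members Cy5 varied more than Cy3. Over 8 arrays the SDs were 0.74 against 0.28 for Scgb3a1, 0.64 against 0.25 for Scgb3a2 and 0.27 against 0.20 for Scgb1c1. The first scan day had higher ratios of all 4 members than the second, with means of 0.65 against 0.05 for Scgb3a2 and 2.34 against 1.63 for Scgb1a1, and the part of the scan day in this was not tested.

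All 6 pairs of members had a positive r over the lungs, from 0.0453 to 0.865, and 1 pair passed its adjusted threshold. Of the pairs, Scgb3a2 with Scgb1c1 had the strongest relation over the 8 lungs, with a Pearson r of 0.865 (exact permutation p = 0.0062, adjusted over the 6 pairs 0.0372) and a Spearman rho of 0.786 (exact permutation p = 0.0279, adjusted 0.168). Transgenic replicate 1 was the highest lung for both genes, and wild-type replicates 2 and 4 were the lowest for both. Wild-type replicate 3 was the highest wild-type lung for both, but for Scgb3a2 it lay below transgenic replicates 1, 3 and 4. The r was 0.883 with each genotype centered on its mean, 0.822 with each scan day centered and 0.836 with each slide centered, and it was 0.796 without wild-type replicates 2 and 4, the lungs farthest from the median of Scgb3a2. In the sample channel alone it was only 0.487, and its adjusted p was then 0.646.

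Scgb1a1 with Scgb1c1 reached an r of 0.767 over 7 lungs (exact permutation p = 0.0423, adjusted 0.127) and a rho of 0.643 (exact permutation p = 0.139, adjusted 0.417), and the r was 0.307 without wild-type replicates 2 and 3. Scgb3a2 with Scgb1a1 had an r of 0.558 (exact permutation p = 0.192, adjusted 0.385) and a rho of 0.5 (exact permutation p = 0.267, adjusted 0.533) over 7 lungs, and the r was -0.181 without wild-type replicates 2 and 4. For Scgb3a1 no pair had a p under 0.05. Its r was 0.37 with Scgb1c1 (exact permutation p = 0.371, adjusted 0.556), 0.256 with Scgb1a1 (exact permutation p = 0.564, adjusted 0.677) and 0.0453 with Scgb3a2 (exact permutation p = 0.918, adjusted 0.918). The rho values of these 3 pairs were 0.333, 0.286 and 0.0476, with exact permutation p of 0.428, 0.556 and 0.935 and adjusted values of 0.642, 0.667 and 0.935. Without the 2 lungs farthest from the median of Scgb3a1 its r was 0.00429 with Scgb1c1 and 0.876 with Scgb1a1, and without those farthest for Scgb3a2 it was 0.129 with Scgb3a2. Centering changed these values. With each genotype centered on its mean, which removes the shift between wild-type and transgenic lungs, r was 0.934 for Scgb3a2 with Scgb1a1, 0.853 for Scgb1a1 with Scgb1c1, 0.696 for Scgb3a1 with Scgb1c1, 0.595 for Scgb3a2 with Scgb3a1 and 0.267 for Scgb3a1 with Scgb1a1, all without a test. With each slide centered it was 0.401, 0.929, 0.395, -0.0902 and 0.588 for the same pairs, over 3 slides where Scgb1a1 is involved and 4 otherwise. With each scan day centered, none of these 5 pairs changed sign except Scgb3a2 with Scgb3a1, at -0.0799. Over 29502 probes, the deviations of the 2 arrays of a slide from their genotype means had an r of 0.303, 0.324, 0.247 and 0.0754 on slides 1 to 4. For a wild-type and a transgenic array of different slides r ran from -0.315 to 0.205. The permutation p-values treat the lungs as exchangeable.

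Among the epithelial gene lists whose means were compared, Scgb3a1 had its highest r with the upper airway list. The mean of the adipose list was not among those compared. Over the 8 lungs its r with the mean log2 ratio of the goblet, gland and upper airway list was 0.983 (exact permutation p = 0.000248, adjusted over 16 relations of members with list means 0.00397), and rho was 0.905 (exact permutation p = 0.00456, adjusted 0.073). The r was 0.992 with the genotypes centered, 0.983 with the scan days centered, 0.989 with the slides centered and 0.939 without transgenic replicates 1 and 4, the lungs farthest from the median of Scgb3a1. These 16 relations were added after the values had been seen. Transgenic replicate 4 decided the adjusted p, which was 0.0508 without it at an r of 0.96.

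Only some genes of that list followed Scgb3a1 closely, and 9 of its 20 probes had an r over 0.7. The first 4 genes given here have a high r and were chosen after their values had been seen. Muc5b, a gel-forming mucin of large airways and glands, was 1.44 in transgenic replicate 1 and -0.50 in transgenic replicate 4, and its r with Scgb3a1 was 0.952. Tff2, a trefoil peptide secreted with mucus, was 2.38 and -0.89 in the same lungs with an r of 0.946. Ltf, the iron-binding milk and airway protein lactotransferrin, was 0.89 and -2.69 with an r of 0.976. Reg3g, a secreted antibacterial lectin, was 1.54 and -3.84 with an r of 0.968. All 4 genes, as Scgb3a1 itself, were highest in transgenic replicate 1, and transgenic replicate 4 was the lowest lung for Tff2, Ltf and Reg3g. Bpifa1, another secreted protein of the upper airways, did not share the peak and was -1.26 in transgenic replicate 1.

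**Figure D3:**
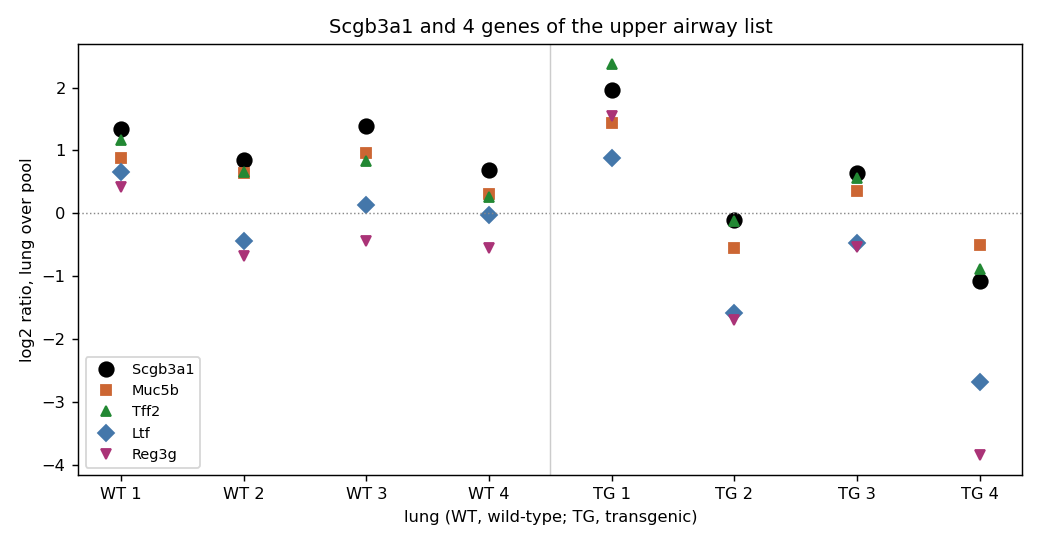
Log2 ratio to the pool in each of the 8 lungs (horizontal axis, 4 wild-type and 4 transgenic) for Scgb3a1 (black) and 4 secreted products of the upper airway list. These 4 were chosen after their values had been seen. All 5 genes are highest in transgenic replicate 1, and Scgb3a1 is lowest in transgenic replicate 4 at -1.07.

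**Figure D4:**
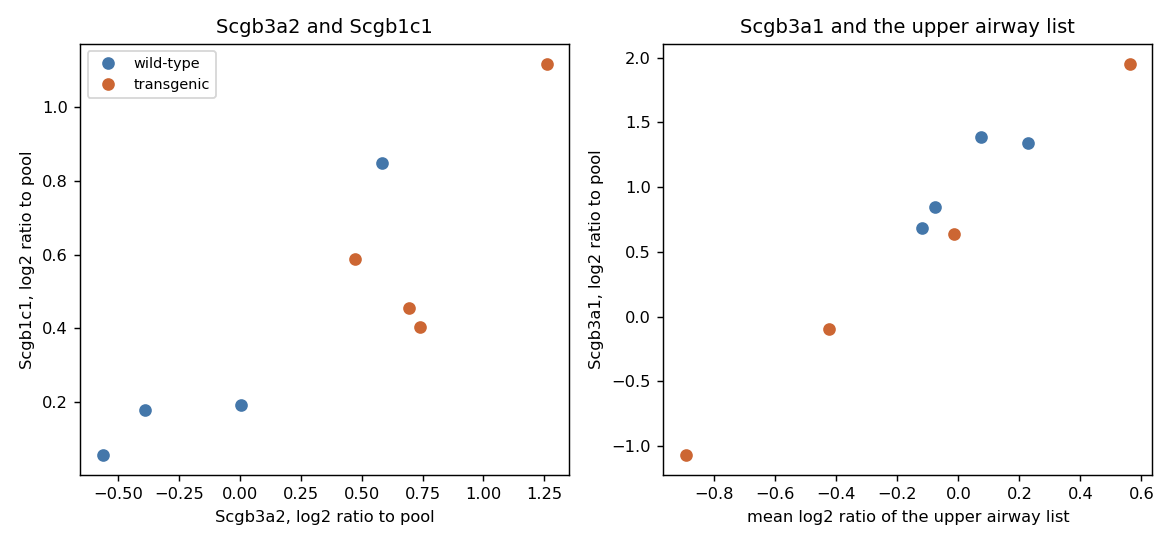
Left, log2 ratio of Scgb1c1 against that of Scgb3a2. Right, log2 ratio of Scgb3a1 against the mean log2 ratio of the goblet, gland and upper airway list. Each point is 1 lung, blue for wild-type and orange for transgenic, with an r of 0.865 on the left and 0.983 on the right.

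Of 20 upper airway probes, 9 (45%) had an r over 0.7 with Scgb3a1, against 4.56% of 23710 probes that were named, complete and well above background on all arrays. Scgb3a1 also exceeded this r with 6 of 11 adipose probes (54.5%), a larger share than in the upper airway list, with 8 of 31 ciliated cell probes (25.8%) and with 6 of 25 club cell probes (24%), and the part of these tissues in its level was not tested. Scgb1a1 exceeded it with 11 of 25 club cell probes (44%), 10 of 31 ciliated cell probes (32.3%), 5 of 22 type II probes (22.7%) and 0 of 20 upper airway probes, against 6.4% of all probes over the 7 lungs. Its r with the mean of the club cell list was 0.693, and 0.116 without wild-type replicates 2 and 3, so it rests on these lungs. Scgb1c1 exceeded it with 17 of 31 ciliated cell probes (54.8%) and 9 of 25 club cell probes (36%), against 4.61% of all probes. Scgb3a2 exceeded it with 4 of 31 ciliated probes (12.9%) and 1 of 25 club cell probes (4%), against 2.3% of all probes. Probes of a list share the same lungs and arrays, and no test was made on these counts.

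**Figure D5:**
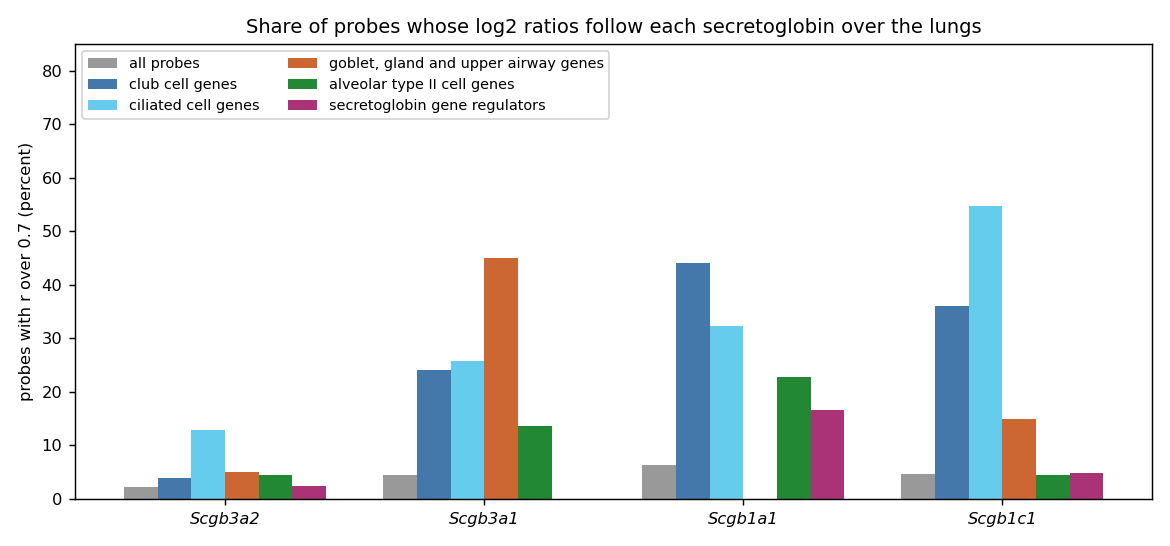
Percent of probes (vertical axis) whose log2 ratio has a Pearson r over 0.7 with each secretoglobin over the lungs, for all probes (gray) and for 5 gene lists. Of the lists drawn, which leave out adipose genes, the upper airway list is highest for Scgb3a1 (45%), the club cell list for Scgb1a1 (44%) and the ciliated cell list for Scgb1c1 (54.8%).

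The r of Scgb1c1 with the mean of the ciliated cell list was 0.872 (exact permutation p = 0.0067, adjusted over the 16 relations 0.0508), with a rho of 0.69 (exact permutation p = 0.0694, adjusted 0.278), and it was 0.185 without wild-type replicate 3 and transgenic replicate 1, so the relation rests on these lungs. Foxj1, the master regulator of motile cilia, had an r of 0.792 with Scgb1c1, while Tppp3, another ciliated cell gene, had 0.452. Among the other 14 relations, r with the club cell list was 0.834 for Scgb3a1 (exact permutation p = 0.00952, adjusted 0.0508; rho 0.833, exact permutation p = 0.0154, adjusted 0.123), and it was 0.734 without transgenic replicates 1 and 4. No other relation had an adjusted p under 0.156.

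The genes whose log2 ratios were most like each member were taken by rank of r. Over 8 lungs they were Nfatc3, Alpl, Dixdc1, Gria1 and 6330439K17Rik for Scgb3a2, with r from 0.929 to 0.955. They were Pmm1, Ltf, Acta2, Reg3g and Ccdc65 for Scgb3a1, with r from 0.966 to 0.99. For Scgb1c1 they were Elf5, an ETS transcription factor of epithelia, followed by Kifap3, Mrps17, Zmynd12 and St6gal1, with r from 0.961 to 0.986. Over 7 lungs they were Map3k5, Bmp8a, Fhdc1, Olfr947-ps1 and Nfatc2 for Scgb1a1, with r from 0.965 to 0.985. With 23710 candidates and so few lungs, values of this size are the upper end of a ranking.

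Among 27 genes listed here as known or possible regulators of secretoglobin transcription, none of 49 probes passed the adjusted threshold. In the transgenic lungs 15 of these probes lay higher and 34 lower, their median difference was -0.04 against 0.00 for all probes, and 1 of the 49 had an unadjusted p under 0.05, a share near the 2.09% of all probes. The median ran from -0.08 to -0.01 when each mouse was left out. The called probe was that of Cebpa, which encodes a C/EBP factor of the distal lung, at 0.49 ± 0.08 in wild-type and 0.09 ± 0.16 in transgenic lungs (SD, n = 4 each), a difference of -0.39 (SE 0.11) with an unadjusted p of 0.00393 in limma and groups that did not overlap. The second Cebpa probe differed by -0.33 with an unadjusted p of 0.176. Nkx2-1, the lung homeodomain factor, differed by -0.01 (SE 0.11), Foxa2 by 0.06 (SE 0.11) and Foxa1 by 0.00 (SE 0.14). Over 7 lungs r with Scgb1a1 was 0.96 for Nkx2-1, 0.885 for Foxa1 and 0.686 for Foxa2, while Nkx2-1 had an r of 0.0343 with Scgb3a1 and 0.369 with Scgb3a2. Of 42 regulator probes 7 (16.7%) had an r over 0.7 with Scgb1a1, against 6.4% of all probes. The share with Scgb1a1 was 3 of 14 for striated muscle probes (21.4%), 3 of 17 for lymphocyte probes (17.6%) and 0 of 11 for adipose probes. For the regulators it was 1 of 42 with Scgb3a2 (2.38%, against 2.3% of all probes) and 2 of 42 with Scgb1c1 (4.76%, against 4.61%). With Scgb3a1 it was 0 of 42, against 4.56%. No test was made on these values, and the Cy3 signal of Scgb1a1 varied more than its Cy5 signal.

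Proteins that secretoglobins are reported to bind or act through were split into 27 higher and 19 lower probes (median difference 0.03, or -0.02, -0.00 and -0.01 without transgenic replicate 1, wild-type replicate 2 and wild-type replicate 4), and 0 of 46 had an unadjusted p under 0.05. The scavenger receptor gene Marco differed by 0.13 (SE 0.19), the lipocalin receptor gene Lmbr1l by 0.05 (SE 0.13) and the TGF-beta inhibitor gene Smad7 by 0.19 (SE 0.16). The formyl peptide receptor gene Fpr2 differed by 0.25 (SE 0.15) on its brightest probe and by 0.005 on its other probe. Of the other secretoglobins 7 genes had a probe, all of the androgen-binding protein cluster, and 3 of them were tested. Abpg, now Scgb2b26, differed by 0.32 with an unadjusted p of 0.0591 in limma, Abpb by 0.07 and Abpz by -0.11. Members of this cluster are near-identical copies, so which of them a probe reads is uncertain.

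Genes of the airway cells that make secretoglobins were compared in the same way. Of all probes, 2.09% had an unadjusted p under 0.05 in limma, with 0.974% lower and 1.12% higher in the transgenic lungs. The club cell list had 12 probes above and 20 below the wild-type mean (median difference -0.05), and 1 of the 32, Cyp2b10, had an unadjusted p under 0.05, while the median turned to 0.05 without wild-type replicate 3. The club cell marker Cyp2f2 differed by 0.05 (SE 0.27) and Cldn10 by -0.30 (SE 0.20), whereas Cbr2 and Aldh1a1 had too few unflagged spots to be tested. The ciliated cell list had 29 of 35 probes above it (median difference 0.06), with 0 at an unadjusted p under 0.05, and its median turned to -0.05 without transgenic replicate 1. In the upper airway list 16 of 23 probes lay lower (median -0.14), and 2 had an unadjusted p under 0.05, Bpifa1 at -1.53 and Bpifb5 at -0.31, while the median was 0.04 without transgenic replicate 4 and -0.06 without wild-type replicate 1. Tracheal cartilage genes were split into 10 higher and 11 lower probes (median -0.00, of either sign when each mouse was left out).

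Alveolar type II genes, the genes of the cell type in which the transgene promoter is active, lay mostly lower. Here 29 of 36 probes were lower, the median difference was -0.29, and 8 had an unadjusted p under 0.05, all lower, against 0.974% of all probes in this direction. The median was -0.12 without wild-type replicate 3 and -0.46 without wild-type replicate 4, and the list means overlapped, from 0.01 to 0.68 in wild-type and from -0.12 to 0.30 in transgenic lungs. Of these, Lyz1 differed by -1.21 (SE 0.32) (unadjusted limma p of 0.00451), Sftpd by -0.47 (SE 0.16, 0.0133) and Sftpa1 by -0.75 (SE 0.29, 0.0238). Fasn, Lamp3 and Lyz2 followed at -0.52, -0.96 and -0.76. Other tested probes of these genes differed by -0.31 for Fasn, -0.50 and 0.11 for Lamp3 and -0.96 for Lyz2. Sftpc, whose human promoter drives the transgene, differed by -0.60 (SE 0.41), Sftpb by -0.57 (SE 0.27) and the lipid transporter gene Abca3 by -0.01 (SE 0.10). The other tested probes of Abca3 differed by -0.28 and -0.18. Sftpc had an r of -0.0227 with Scgb3a2 over the lungs.

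Lists of adipose, striated muscle and lymphocyte genes had most of their probes on 1 side between genotypes, with list means that overlapped, and their part in the secretoglobin values was not tested. Transgenic lungs were lower for 13 of 14 adipose probes (median difference -0.30, or -0.20 without transgenic replicate 4), with 5 at an unadjusted p under 0.05, and the mean log2 ratio of the list ran from 0.31 to 0.85 in wild-type and from -0.48 to 0.46 in transgenic lungs. Car3 at -1.33 (-0.23 on its second probe) and Adiponectin (Adipoq) at -0.89 were among them. They were lower for 15 of 18 striated muscle probes (median -0.32), with 4 at an unadjusted p under 0.05, among them Ckm, Myh6 and Myl4, and the list ran from 0.26 to 0.67 and from -0.12 to 0.30. They were higher for 14 of 17 lymphocyte probes (median 0.20), with 4 at an unadjusted p under 0.05, among them Cd2, Ms4a1 and Ighm, and the list ran from -0.33 to 0.02 and from -0.08 to 0.41. At this unadjusted p limma called 0.974% of all probes as lower and 1.12% as higher. No probe of these lists passed the adjusted threshold.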

How the data were processed

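The 8 arrays, 4 of each genotype, were grouped as the labels give it. For each array the authors deposited Agilent Feature Extraction output (10.10.1.1 in the file headers, 11.0.1.1 in the labels) with median spot intensities, local backgrounds, background-corrected and dye-normalized processed intensities and flags. Its log10 ratios, as deposited, lie within 0.001 of those of the processed intensities for 93.5% of spots and were used only in this check. Gene symbols came from a matrix in which the authors deposited log2 ratios of the processed signals, exported from GeneSpring and filtered on detection calls. The labels and the methods name different RNA kits and slightly different ages.

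Using limma 3.58.1 (R 4.3.3, data.table version 1.17.8), the median intensities were corrected with normexp (offset 50) fitted on unflagged spots, and log2 ratios were normalized by loess within arrays. Control spots had no weight, and spots flagged as non-uniform or as population outliers, or with a non-uniform background, were left out (1.72% to 6.46% per array). Probes well above background in Cy5 on at least 4 arrays with at least 2 values per genotype were tested, 32653 of 41174. The limma moderated test was two-sided with Benjamini-Hochberg adjustment over all tested probes, and p-values in the text without a permutation come from it. Nothing in the sources states whether the mice shared litters. Correlations and exact permutations were computed with Python 3.11.15, numpy 2.4.6 and pandas 2.3.3, and figures were drawn with matplotlib 3.10.9. The number of arrays limits the precision.

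The members and lists were chosen with earlier results of these data known. Genes named from a list are those with an unadjusted p under 0.05 or non-overlapping groups, at most 6 a list, and a preset few, and some of these genes are not reported here. Genes quoted for their r with a member beyond the 5 ranked ones (Muc5b, Tff2 and others) were chosen after their values were seen. The brightest probe stands for a gene that has several. The fit was checked on simulated data. Alternatives changed the background correction, normalization, channel, filter, variance model, test and blocks, used the matrix, or left out each mouse. Same-numbered mice did not deviate together in every case (r of -0.0849 for replicate 3 and -0.21 for replicate 4), so the numbers were not taken as pairs. The probe sequences and the protein sequences of the members were not used here. Gene locations other than the promoter windows were not used, since the array was annotated on another build.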

Additional observations from a re-analysis of the deposited data

How the results depend on the processing

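Scgb3a2 kept its direction under 22 alternatives, with a difference of 0.74 to 1 under 14 settings and of 0.726 to 1.11 when each mouse was left out, and its adjusted p was never under 0.978. Scgb3a1 ran from -0.768 to -0.587 and, when each mouse was left out, from -1.24 to -0.234, and Scgb1c1 from 0.219 to 0.334 and from 0.163 to 0.498. Scgb1a1 changed sign with normexp fitted on all spots (0.0599), the authors' matrix (0.176), flagged spots kept (0.178), array weights (0.0563) and the scan day as a block (0.0163), and ran from -0.285 to 0.181 when each mouse was left out, 0.181 being without wild-type replicate 3. The replicate number as a block, although the numbers did not pair the mice, gave an unadjusted p of 0.00138 for Scgb3a2, 0.0483 for Scgb3a1, 0.933 for Scgb1a1 and 0.122 for Scgb1c1 in limma, and 858 probes at an unadjusted p under 0.05 with 0 after adjustment.

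Probes with an unadjusted p under 0.05 numbered 684, against 391 with normexp fitted on all spots, 324 in the sample channel, 1283 with array weights, 1198 with the slide as a block and 485 to 1175 when each mouse was left out (1175 without wild-type replicate 4; leaving out transgenic replicate 1 gave 1073 and leaving out replicate 4 of that genotype 1037), and 0 passed the adjustment in each. The median difference of a list moved beyond its spread between mice for lymphocyte genes without offset (0.41), adipose genes with processed signals or the matrix (-0.642 in both), regulators with median-centring (-0.115) or the sample channel (-0.127) and binding proteins with median-centring (-0.0598). The median over all tested probes moved too, from 0.001 as reported to -0.0481 with median-centring and -0.0376 in the sample channel. The causes were not tested.

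The r of Scgb3a2 with Scgb1c1 no longer passed its adjusted threshold with processed signals (0.846), median-centring (0.778) or the sample channel (0.487), and was 0.781 to 0.92 when each mouse was left out, not passing in 5 of 8. Scgb1a1 with Scgb1c1 passed in the matrix (0.831), but was 0.201 in the sample channel and 0.423 to 0.918 when each mouse was left out, 0.423 being without wild-type replicate 3. Pairs with Scgb3a1 had no stable sign. Its r with Scgb3a2 was -0.0387 with processed signals and with the matrix, -0.379 with median-centring, -0.0487 in the sample channel and -0.4 to 0.38 when each mouse was left out. With median-centring it was -0.0394 with Scgb1a1 (-0.187 to 0.508 when each mouse was left out) and -0.00123 with Scgb1c1 (-0.0171 to 0.5). The relation of Scgb3a1 with the upper airway list, with alternatives chosen after seeing the data, ran from 0.926 to 0.984 and from 0.96 to 0.993 when each mouse was left out. That of Scgb1c1 with ciliated genes passed without offset (0.868), with processed signals or the matrix (0.845 in both), was 0.654 with median-centring and in the sample channel (adjusted p of 0.393 and 0.521), and ran from 0.724 to 0.948 when each mouse was left out. The member spots were well above background on every array.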

Other observations

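Some genes for phospholipases A2, enzymes that Scgb1a1 has been linked to inhibiting, followed it over the 7 lungs, which was noticed after the values had been seen. The r with Scgb1a1 was 0.865 for Pla2g1b, 0.83 for Pla2g2a and 0.866 for the cytosolic enzyme gene Pla2g4a, but -0.151 for Pla2g2d. Between genotypes Pla2g1b differed by -0.14, Pla2g2a by -0.08 and Pla2g4a by 0.03, with unadjusted p of 0.467, 0.482 and 0.794 in limma. Of 39 probes of the binding and signaling list 7 (17.9%) had an r over 0.7 with Scgb1a1, against 6.4% of all probes. The striated muscle list held 3 of 14 such probes (21.4%), the lymphocyte list 3 of 17 (17.6%) and the adipose list 0 of 11.

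With each genotype centered on its mean, the genes most like the members were Vpreb3, Sec14l3, Ube2q2, Olfr1341 and Eif4e2 for Scgb3a2 (r of 0.975 to 0.99), Pmm1, Anxa8, Tff2, C1qtnf5 and Il13 for Scgb3a1 (0.98 to 0.988), Adig, Ccdc107, Map3k5 and Olfr67 among those for Scgb1a1 over 7 lungs (0.983 to 0.989), and Mchr1, 2610029I01Rik, Tmc4, Slc44a4 and Elf5 for Scgb1c1 (0.984 to 0.991).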
